A study of Homo sapiens with 12 samples.

Results

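The MYC, MAX and MXD network was followed here in INA-6 cells, a human multiple myeloma cell line that grows with interleukin-6. Its members were 10 genes, MYC, MYCN, MYCL, MAX, MXD1, MXD4, MXI1, MNT, MLX and MLXIP, and every probe set that the platform annotation paired with 1 of these symbols was taken. That gave 34 probe sets for 9 genes, out of 54613 probe sets and 19775 genes in all. The 3 probe sets of MXD4 are paired with a second symbol as well, so MXD4 has no value here. The culture medium held interleukin-6 (2 ng/ml) and 10% serum from fetal calves, and the cells received the solvent DMSO, the Raf inhibitor SB590885 or the MEK inhibitor PD325901. Each of the 3 groups holds 4 arrays, described as biological replicates, so all 12 arrays share 1 cell line and 1 medium. Neither the doses nor the treatment times are known here. In each group a second label gives arrays 3 and 4 the same numbers as arrays 1 and 2, followed by an R with no stated meaning. Whether they repeat those replicates is not known, and n = 4 and every p-value count arrays.

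MYC, MYCN and MYCL are basic helix-loop-helix leucine zipper transcription factors that bind DNA as a pair with MAX and switch on genes of growth, nucleotide synthesis and ribosome production. MXD1, MXI1, MXD4 and MNT pair with MAX as well, recruit SIN3 corepressor complexes and hold many of the same genes down, so MAX is shared by activators and repressors. MLX is a second common partner, which binds some of the MXD proteins and MNT, and joins with MLXIP (also called MondoA) to switch on genes such as TXNIP when sugar phosphates accumulate. In myeloma, raised MYC activity is a common feature of progression. ERK, the kinase below Raf and MEK, can phosphorylate and stabilise MYC protein, a step that arrays of RNA do not measure.

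MYC and its relatives bind the E-box CACGTG, a sequence that reads the same on both strands. It was searched for in the 250 bases before each RefSeq transcription start (GRCh38.p14). It was found in 3 of 12 windows of 9 members, those of MLX, MNT and MXD4, and in 6.34% of 35116 promoter windows of all genes. These 9 members include MXD4 and leave out MYC, whose promoter was not searched for any motif. The windows of MLX, which changed with SB590885, of MNT, which did not pass the test, and of MXD1, which had the widest difference, are shown to compare a window with the E-box close to the start, one with it far off and one without it. They lie at chr17:42566850-42567099 (plus strand), chr17:2401061-2401310 (minus strand) and chr2:69914859-69915108 (plus strand). Each runs 5′ to 3′ and ends just before the start, with CACGTG in capitals.
MLX: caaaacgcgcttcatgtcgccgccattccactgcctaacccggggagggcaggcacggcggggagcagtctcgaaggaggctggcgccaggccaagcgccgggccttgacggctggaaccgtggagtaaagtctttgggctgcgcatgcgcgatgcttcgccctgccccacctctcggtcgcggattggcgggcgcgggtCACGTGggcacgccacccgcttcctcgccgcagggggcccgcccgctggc
MNT: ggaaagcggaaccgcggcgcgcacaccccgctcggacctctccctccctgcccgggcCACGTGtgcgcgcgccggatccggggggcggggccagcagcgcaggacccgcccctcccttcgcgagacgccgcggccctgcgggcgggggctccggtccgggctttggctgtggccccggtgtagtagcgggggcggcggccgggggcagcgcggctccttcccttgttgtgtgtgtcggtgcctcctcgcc
MXD1: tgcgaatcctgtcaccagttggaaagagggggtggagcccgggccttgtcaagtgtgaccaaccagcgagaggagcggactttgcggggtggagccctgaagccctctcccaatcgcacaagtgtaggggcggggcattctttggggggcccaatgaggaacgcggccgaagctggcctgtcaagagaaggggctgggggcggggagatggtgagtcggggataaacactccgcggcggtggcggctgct
The E-box began 50 bases before the start of MLX and 193 bases before that of MNT. The ETS motif CCGGAAGT, searched on both strands, was in 0 of the 12 windows and in 3.42% of all. The forkhead motif GTAAACA, also on both strands, was in 1 window, that of an MXI1 start, 151 bases before it, and in 2.98% of all.

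Values are log2 expression after RMA. The median over all probe sets and arrays was 6.92, and the list of 32 measured tissue-restricted genes, which stand for background, had medians of 6.64 to 6.79 in the 12 arrays. Of 12 measured genes below ERK, 3 passed with SB590885 and 5 with PD325901, all lower, where 1.69% and 0.506% of all genes were called lower. DUSP6, the ERK phosphatase, fell by 0.97 with SB590885 (limma, Benjamini-Hochberg adjusted p = 0.00639) and fell by 2.64 with PD325901 (adjusted p = 4.6e-06), and the ETS factor gene ETV5 fell by 1.21 (adjusted p = 6.18e-05) and fell by 1.82 (adjusted p = 5.98e-07). With the mean of the gene's probe sets the ETV5 differences were -0.57 and -0.83. Without replicate number 1, the DUSP6 call with SB590885 was lost (-0.88, adjusted p = 0.0997). Plasma cell markers were high, for example IRF4 at 11.88, XBP1 at 12.65 and JCHAIN at 13.97. Markers of other blood and stromal cells were lower, and the 4 with the highest means were HBB (8.83), PECAM1 (8.62), COL1A1 (8.25) and CD8B (8.18). Arrays with and without the R differed widely: 10989 genes, 55.6% of those tested, passed the test for the mark, and arrays of the same number moved together across groups. For that reason each result is given as fitted without the replicate number and, where it alters the call, with the number as a block. DMSO replicate 2 and PD325901 replicate 2 stood apart in interferon-response genes, with medians over 23 genes of 11.4 and 11.1, against 7.17 to 8.12 in the other 10 arrays.

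Of the 9 measured members, MLX alone passed the test between SB590885 and DMSO, and it was lower. Over all genes 3.28% passed in that comparison, 1.59% higher and 1.69% lower, and the members' count rests on that single gene. None of the 9 passed between PD325901 and DMSO by limma, where 0.592% of genes passed, 0.0860% higher and 0.506% lower. MYCL and MXI1 were below 0.05 there before adjustment. With the replicate block, 2 members passed for SB590885 (MLX lower, MXD1 higher) against 18.9% of genes, 9.09% higher and 9.84% lower, and 3 for PD325901 (MXI1 higher, MAX and MYCL lower) against 8.14%, 1.96% higher and 6.18% lower. The median difference of the 9 was -0.011 with SB590885 and -0.032 with PD325901, while that of all genes was 0.0038 and -0.0029. In bulk RNA, fewer cells of a type and less RNA per cell cannot be told apart. Both comparisons use the same 4 DMSO arrays.

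**Figure D1:**
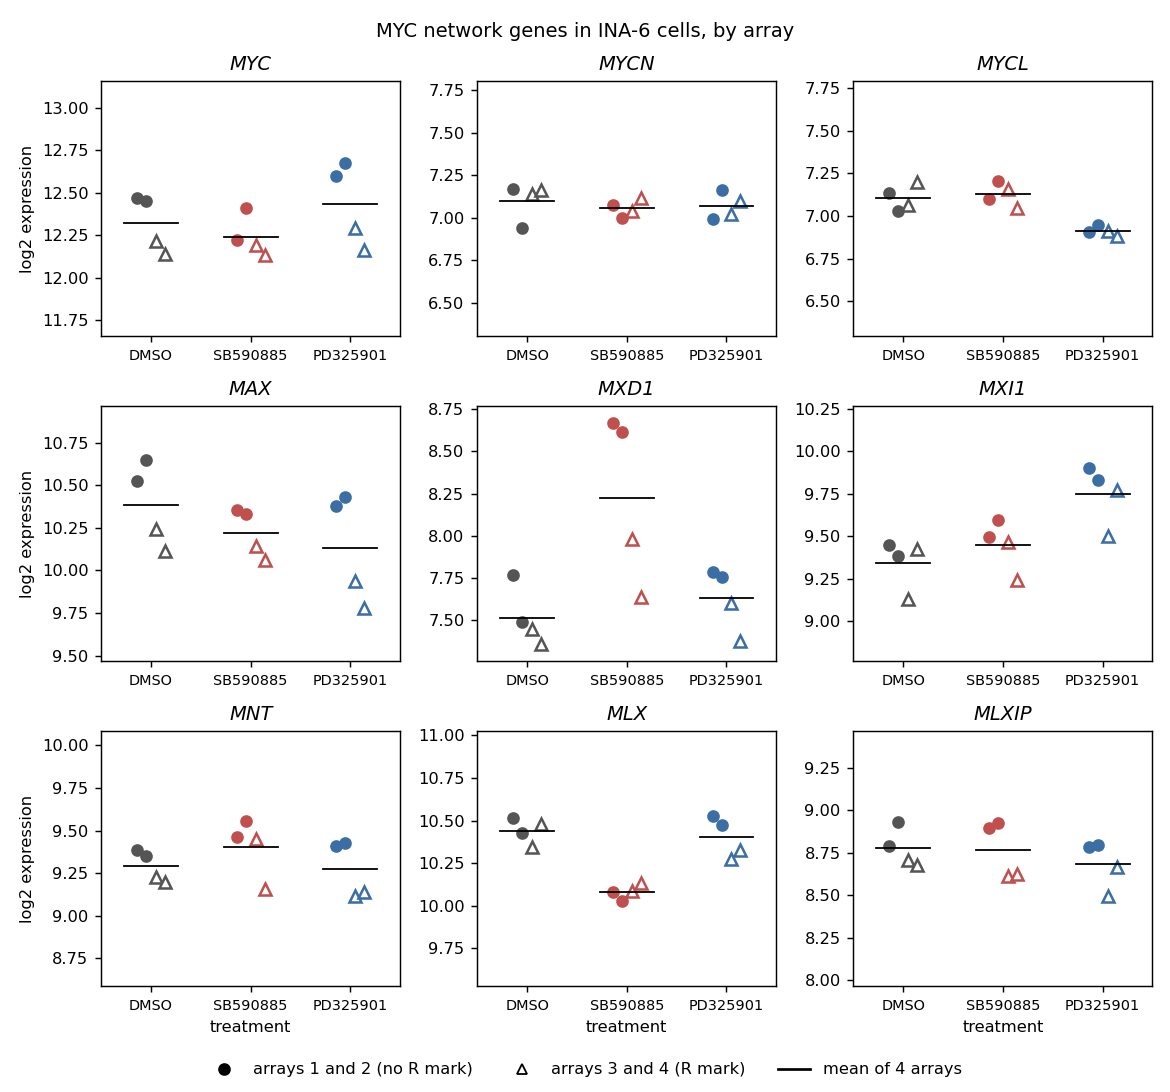
Log2 expression (vertical axes, which differ between genes) of the 9 measured network genes in each array, by treatment; filled circles are arrays 1 and 2, open triangles arrays 3 and 4 with the R mark, and the bar is the mean of 4 arrays. The 4 SB590885 arrays of MLX, 10.02 to 10.13, lie below all others of that gene, and the SB590885 arrays of MXD1 spread from 7.64 to 8.67.

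MYC RNA was abundant in these cells and neither inhibitor moved it past the test. Its probe set 202431_s_at, the only one for the gene, had a mean above 98.7% of all probe sets. The DMSO arrays read 12.47, 12.45, 12.22 and 12.14, the SB590885 arrays 12.22, 12.41, 12.19 and 12.14, and the PD325901 arrays 12.60, 12.68, 12.29 and 12.16. The 3 groups overlapped, and in each group the arrays with the R mark were the lower ones. MYC was 12.32 ± 0.17 (SD, n = 4) with DMSO and 12.24 ± 0.12 with SB590885, a difference of -0.081 (95% interval -0.34 to 0.18, adjusted p = 0.923 by limma). With PD325901 it was 12.43 ± 0.24, a difference of 0.11 (interval -0.14 to 0.37, adjusted p = 0.985). After quantile normalization the differences were -0.0018 and 0.19. Within same-numbered pairs the SB590885 array lay below its DMSO array in 4 of 4 and the PD325901 array above it in 4 of 4, by small amounts, and with the replicate block neither difference passed (adjusted p = 0.402 and 0.261). Over all genes, 16.9% lay below in all 4 pairs with SB590885 and 12.2% above in all 4 with PD325901.

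Set directly against each other, the inhibitors differed by -0.19 in MYC (SB590885 minus PD325901, interval -0.45 to 0.063), which did not pass (adjusted p = 0.596). With the replicate block it did, at adjusted p = 0.0245, as 18.1% of genes did. The gap was -0.32 in the arrays without the R (adjusted p = 0.0276) and -0.066 in those with it (adjusted p = 0.699). The genes whose values ran most like those of MYC over the 12 arrays, after the mean of the 6 arrays with or without the R was taken off, were TRPS1 (r = 0.935), GRIN2C (r = 0.935) and HPS5 (r = 0.908). Without that step the same correlations were 0.640, 0.484 and 0.914. The points share arrays and treatment groups.

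MYCN and MYCL, the relatives of MYC that are mostly restricted to neural, lung and embryonic tissue, were read close to background. The 10 probe sets of MYCN had means of 6.20 to 7.08, and none of them passed in a comparison with DMSO with or without the block. In the probe set that stood for the gene, 209756_s_at, MYCN was 7.10 ± 0.11 with DMSO, 7.06 ± 0.049 with SB590885 and 7.07 ± 0.076 with PD325901. For MYCL, probe set 214058_at read 7.13, 7.03, 7.06 and 7.20 in the DMSO arrays, 7.10, 7.20, 7.16 and 7.05 with SB590885, and 6.90, 6.95, 6.91 and 6.88 with PD325901. The PD325901 arrays lay below all others, a separation from DMSO in one direction or the other that 4.08% of genes showed. The difference from DMSO was -0.20 (SE 0.050, adjusted p = 0.166), and with the block it passed (adjusted p = 0.0311). Against PD325901, MYCL was higher with SB590885 by 0.22 (adjusted p = 0.0411), a comparison in which 2 of the 9 members passed and 2.82% of genes did, 1.97% higher and 0.855% lower with SB590885. That call was lost when any 1 of 9 arrays was left out: DMSO 1 or 3, SB590885 1, 2 or 3, or any PD325901 array (adjusted p up to 0.231 over the arrays and replicate numbers left out). It was also lost in the arrays without the R (0.23, adjusted p = 0.0531), in those with it (0.20, adjusted p = 0.129), without both interferon-high arrays (0.23, adjusted p = 0.0768), after median centring (0.22, adjusted p = 0.0851), with low genes left out (0.22, adjusted p = 0.0557) and with the mean of the gene's probe sets (0.10, adjusted p = 0.269). The second MYCL probe set, 215491_at, read 6.80 to 6.97 with DMSO and 6.82 to 7.06 with PD325901, a difference of 0.036 (adjusted p = 1.00).

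MAX, the shared partner, was lower than DMSO in every same-numbered pair with either inhibitor in its brightest probe set. The amounts lay within the spread of the arrays. Over all genes, 16.9% lay below in all 4 pairs with SB590885 and 18.5% with PD325901. The brightest probe set of MAX, 209332_s_at, read 10.53, 10.65, 10.24 and 10.11 with DMSO, 10.35, 10.33, 10.14 and 10.06 with SB590885, and 10.38, 10.43, 9.94 and 9.78 with PD325901. The groups overlapped, and the arrays with the R mark were lower by 0.40 on average (adjusted p = 2.04e-05). The difference from DMSO was -0.16 with SB590885 (adjusted p = 0.836, 0.0699 with the block, and 0.0327 in the arrays without the R alone, at -0.25) and -0.25 with PD325901 (adjusted p = 0.933). With the block the PD325901 difference passed (adjusted p = 0.0160), as it did in the arrays with the R alone (-0.32, adjusted p = 0.0368) but not in those without it (-0.18, adjusted p = 0.287). A second probe set, 209331_s_at, was also lower in every pair and showed -0.24 with PD325901, which passed with the block (adjusted p = 0.0196). The other 3 probe sets of MAX showed -0.022 to -0.11 with PD325901 and did not pass. Of these, 208403_x_at and 214108_at were higher than DMSO in 1 pair with each inhibitor, and 210734_x_at in 1 pair with PD325901.

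**Figure D2:**
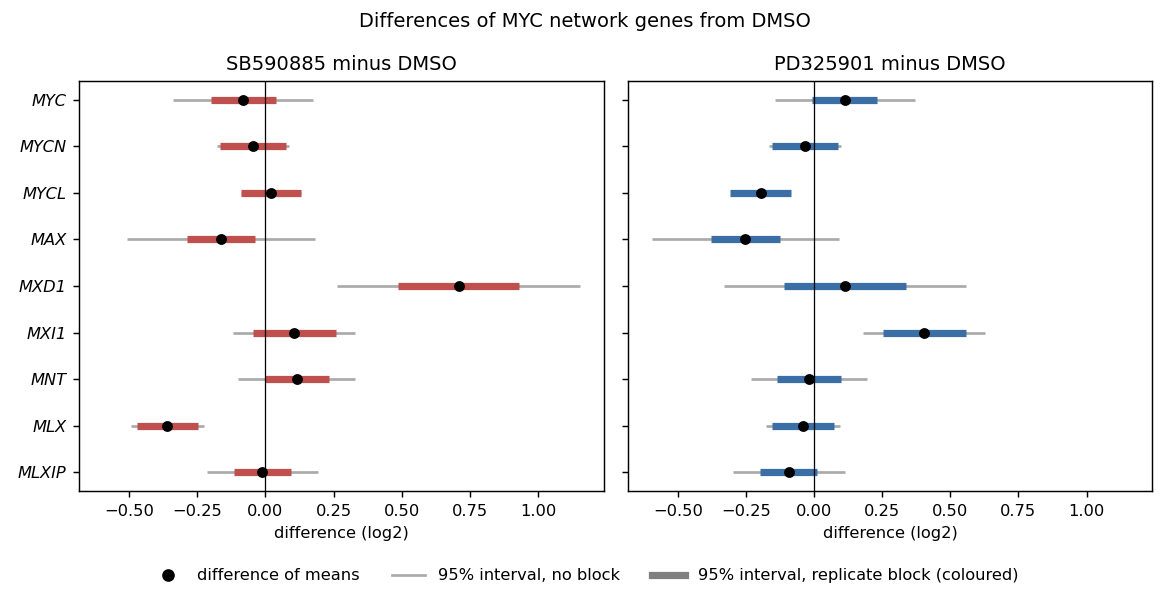
Difference from DMSO (log2, horizontal axes) of the 9 measured members with SB590885 (left) and PD325901 (right); points are differences of group means, thin grey lines 95% intervals without the replicate number and thick coloured lines those with it as a block. MLX (-0.36) and MXD1 (0.71) stand off zero on the left, MXI1 (0.40) and MYCL (-0.20) on the right.

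MXD1, a MAX partner that represses and rises when many cell types stop dividing, had the widest difference of the network, and it was with SB590885. Probe set 226275_at read 7.77, 7.49, 7.45 and 7.36 with DMSO, 8.67, 8.62, 7.98 and 7.64 with SB590885, and 7.79, 7.75, 7.60 and 7.38 with PD325901. Arrays 1 and 2 of SB590885 were far above all others, while array 4 lay within the DMSO range. The mean was 8.22 ± 0.50 (SD, n = 4) against 7.52 ± 0.18, a 1.63-fold difference (0.71 on the log2 scale, SE 0.20) that did not pass (adjusted p = 0.0913). With the replicate block MXD1 rose (adjusted p = 0.000280), in 4 of 4 pairs, where 17.1% of all genes lay above in all pairs. It also passed in the arrays without the R alone (1.01, adjusted p = 0.00113), in those with it alone (0.40, adjusted p = 0.0445), without SB590885 replicate 4 (0.91, adjusted p = 0.0176), after quantile normalization (0.67, adjusted p = 0.0331) and with the mean of the gene's probe sets (0.43, adjusted p = 0.0471). The effect in the arrays with the R minus that in the others was -0.61, which did not pass by limma.

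The other 2 probe sets of MXD1 moved the same way in smaller steps. With SB590885 probe set 228846_at was higher by 0.40 and 206877_at by 0.19, and both passed with the block (adjusted p = 0.000176 and 0.00432). With PD325901 MXD1 was 7.63 ± 0.19, a difference of 0.11 (interval -0.33 to 0.56, adjusted p = 0.987, 0.604 with the block). PD325901 also lay above DMSO in 4 of 4 pairs, as in 12.2% of all genes. Between the inhibitors, SB590885 was higher by 0.60 (adjusted p = 0.184), which passed with the block (adjusted p = 0.000970).

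MXI1, another MAX partner that represses, stood highest with PD325901. Its 1 probe set, 202364_at, read 9.45, 9.38, 9.13 and 9.42 with DMSO, 9.50, 9.59, 9.47 and 9.24 with SB590885, and 9.90, 9.83, 9.50 and 9.77 with PD325901. All 4 PD325901 arrays lay above all DMSO arrays, and 4.08% of genes had a separation in one direction or the other. The difference of 0.40 (1.32-fold, SE 0.10) did not pass (adjusted p = 0.163), and with the block MXI1 rose (adjusted p = 0.00292). It also passed in the arrays without the R alone (0.45, adjusted p = 0.0190) and after quantile normalization (0.49, adjusted p = 0.00776). The value stayed between 0.33 and 0.49 when arrays were left out. With SB590885 the difference from DMSO was 0.11 (interval -0.12 to 0.33, adjusted p = 0.838), and between the inhibitors it was -0.30 (adjusted p = 0.185, 0.00815 with the block). The repressor genes with the widest differences were MXD1 for the Raf inhibitor and MXI1 for the MEK inhibitor.

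MNT, the most widely expressed MAX-binding repressor, showed no change past the test. Probe set 204206_at was 9.29 ± 0.091 with DMSO, 9.41 ± 0.17 with SB590885 and 9.27 ± 0.17 with PD325901, differences of 0.12 (interval -0.099 to 0.33, adjusted p = 0.785) and -0.018 (interval -0.23 to 0.20, adjusted p = 0.996). MXD3, MGA and MLXIPL, further genes of the network outside the 10, did not pass either. MXD3, a repressor, was 8.24 with SB590885 and 7.89 with DMSO (0.35, adjusted p = 0.0588), with all SB590885 arrays above all DMSO arrays, and passed with the block (adjusted p = 0.00169). A separation in either direction was seen in 10.2% of all genes, and 9.09% were called higher with the block.

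MLX, the partner of MLXIP, fell with SB590885. Probe set 213708_s_at read 10.51, 10.43, 10.34 and 10.48 with DMSO, 10.08, 10.02, 10.09 and 10.13 with SB590885, and 10.53, 10.47, 10.27 and 10.33 with PD325901. The 4 SB590885 arrays lay below the other 8, and 10.2% of genes had such a separation between SB590885 and DMSO in one direction or the other. The mean fell by 0.36 (SE 0.062, interval -0.49 to -0.22), to 77.9% of the DMSO level, with an adjusted p of 0.0107 by limma. It was -0.42 in the arrays without the R (adjusted p = 0.00395) and -0.30 in those with it (adjusted p = 0.0316). The call held in each fit that left out 1 array and without both arrays high in interferon genes (-0.36, adjusted p = 0.0361). It was lost without all 3 arrays of number 1 (adjusted p = 0.0979), number 2 (0.110) or number 4 (0.0604), where 9 arrays remain, and after quantile normalization (-0.31, adjusted p = 0.0781). With the mean of the gene's probe sets MLX still passed, at a smaller difference of -0.18 (adjusted p = 0.0307).

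With PD325901 MLX was 10.40 ± 0.12 against 10.44 ± 0.073 in DMSO, a difference of -0.040 (interval -0.18 to 0.095, adjusted p = 0.986). Tested directly, MLX was lower with SB590885 than with PD325901 by 0.32 on the log2 scale (a difference of -0.32, adjusted p = 0.0182), with no overlap of the arrays, as in 7.18% of genes. This call was lost without SB590885 replicate 1, SB590885 replicate 2 or PD325901 replicate 2 (adjusted p up to 0.20 over the arrays and numbers left out), in the arrays with the R alone (-0.19, adjusted p = 0.142), without both interferon-high arrays (-0.29, adjusted p = 0.0726), after median centring (-0.32, adjusted p = 0.0640) and with the mean of the gene's probe sets (-0.14, adjusted p = 0.0995).

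Single probe sets of MLX were all lower on average with SB590885, by unlike amounts, and not all passed. Probe set 217910_x_at, whose suffix marks probes that can match other transcripts, read 10.05, 10.03, 10.09 and 10.05 with DMSO and 9.72, 9.66, 9.68 and 9.72 with SB590885, a difference of -0.36 (adjusted p = 0.00868 over all probe sets). Probe set 217909_s_at showed -0.16 (adjusted p = 0.203), and 210752_s_at, 1570347_at and 231401_s_at showed -0.087, -0.070 and -0.042. Over the 34 probe sets of the network, 2 passed between SB590885 and DMSO, both of MLX, and 1.96% of all probe sets did; with the block 5 passed, against 13.4%. Between PD325901 and DMSO 0 of 34 passed, against 0.346%, and with the block 5, against 4.81%. The genes that ran most like MLX over the 12 arrays, again with the mean of the arrays with or without the R taken off, were NUS1P3 (r = 0.990), MRPS27 (r = 0.982) and INTS13 (r = 0.981), and without that step the correlations were 0.812, 0.958 and 0.878.

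MLXIP, the glucose-sensing partner of MLX, did not pass with either drug. Probe set 202519_at was 8.78 ± 0.11 with DMSO, 8.77 ± 0.17 with SB590885 and 8.68 ± 0.14 with PD325901. The differences were -0.011 (interval -0.22 to 0.19, adjusted p = 0.992) and -0.092 (interval -0.30 to 0.11, adjusted p = 0.985). A further MLXIP probe set, 225157_at, read 8.58, 8.80, 8.42 and 8.58 with DMSO and 8.43, 8.45, 8.08 and 8.36 with PD325901. Its difference of -0.26 did not pass (adjusted p = 0.655 over all probe sets) and passed with the block (adjusted p = 0.00551).

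**Figure D3:**
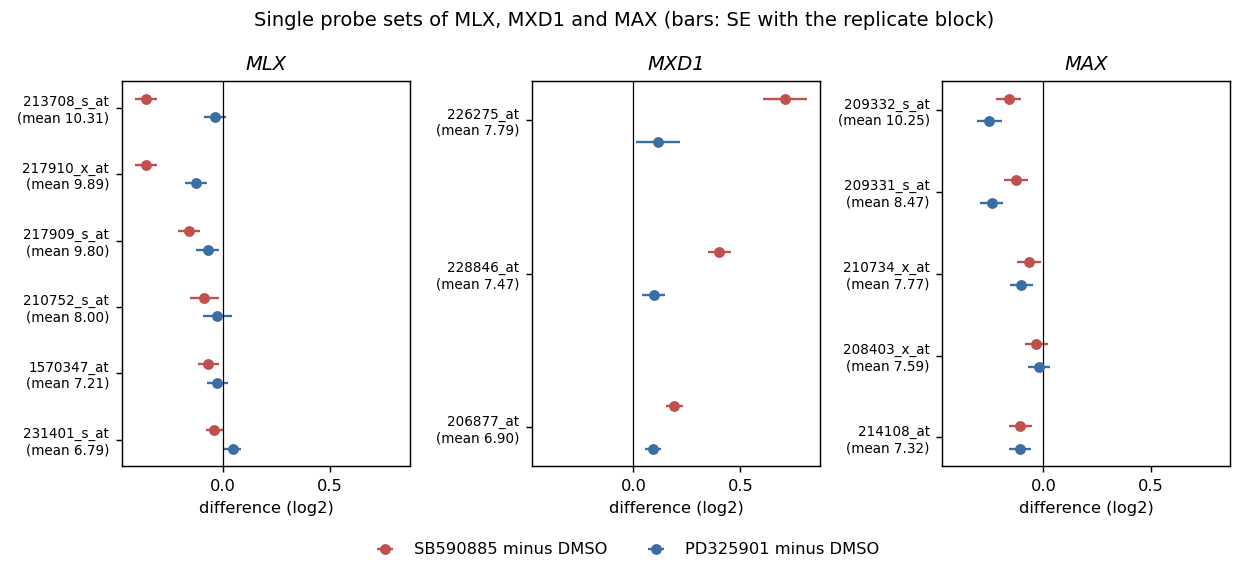
Difference from DMSO (log2, horizontal axes) for every probe set of MLX, MXD1 and MAX, with SB590885 in red and PD325901 in blue; bars are standard errors with the replicate block, and the mean log2 level over 12 arrays stands under each name. The 2 MLX probe sets that passed sit at -0.36 with SB590885, and the 3 MXD1 probe sets at 0.19, 0.40 and 0.71.

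More members passed the test for the R mark than passed for either drug without the block, but the tests are unlike. The R test compares all arrays with the R against all without it, with treatment in the model. The drug tests without the block compare 4 with 4 arrays and leave the R shift in the spread. With the R mark as a term, more members passed for each drug, as given further down. Arrays with the R were lower in MAX (-0.40), MXD1 (-0.45), MYC (-0.28), MLXIP (-0.22), MNT (-0.22) and MXI1 (-0.19), all past the test, and MYCN, MYCL and MLX did not pass. That is 6 of 9, where 55.6% of all genes passed and 32.1% were lower. No member had an effect of SB590885 or PD325901 that differed between arrays with and without the R after adjustment (adjusted p of 0.458 or more). That test called 1 gene in the whole table for SB590885 and 0 for PD325901, so it cannot show that the effects were equal.

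Targets of the network were followed through gene lists of textbook MYC functions. The lists of polyamine and nucleotide synthesis and of the nucleolus and translation sat lower with SB590885. Of 18 measured genes of polyamine and nucleotide synthesis, 4 fell and 0 rose: CTPS1 (CTP synthase) by 0.54, DCTPP1 (a nucleotide pyrophosphatase) by 0.41, DHODH (pyrimidine synthesis) by 0.40 and ATIC (purine synthesis) by 0.32, with limma adjusted p of 0.0104, 0.00807, 0.0117 and 0.0190. The list median was -0.30, and that of all genes 0.0038. In 16 of the 18 genes SB590885 lay below DMSO in all 4 pairs, as in 16.9% of genes, and with the block 15 passed, all lower. Over all genes 1.69% were called lower without the block and 9.84% with it. Without the arrays of number 1 or of number 2 none of the 18 passed, 1 did without those of number 3, 3 without both interferon-high arrays and 8 after quantile normalization. DHODH showed -0.25 when its probe sets were averaged (adjusted p = 0.0154). After quantile normalization the DCTPP1 and ATIC calls were lost (adjusted p = 0.165 and 0.132), and ATIC also without both interferon-high arrays (adjusted p = 0.0696). The ATIC call was lost as well without DMSO replicate 1 or 2 or SB590885 replicate 1 or 2 (adjusted p up to 0.185 over the arrays and numbers left out).

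Of 23 measured genes of the nucleolus and translation, 7 fell with SB590885 and 0 rose. NOP16, a nucleolar protein, fell by 0.60 (adjusted p = 0.00730), BYSL, which helps assemble the small ribosomal subunit, by 0.37 (adjusted p = 0.0107), NOP2, an RNA methyltransferase, by 0.45 (adjusted p = 0.0217) and PES1, of the large subunit pathway, by 0.29 (adjusted p = 0.0248). MRTO4, PA2G4 and WDR12 were the other 3. The list median was -0.27, 20 of the 23 lay below DMSO in all 4 pairs, and 14 passed with the block, all lower. Over all genes 1.69% were called lower, 16.9% lay below in all 4 pairs, and 9.84% were called lower with the block. With the mean of a gene's probe sets NOP16 showed -0.30 (adjusted p = 0.0131), and PES1 no longer passed (-0.15, adjusted p = 0.125). In the arrays with the R alone NOP2 showed -0.23 (adjusted p = 0.0779) and PES1 -0.21 (adjusted p = 0.142), and neither passed there or without both interferon-high arrays. After quantile normalization BYSL and PES1 did not pass (adjusted p = 0.173 and 0.202). NOP2 was also lost without DMSO replicate 1 or 2 or SB590885 replicate 1 or 2 (adjusted p up to 0.206 over the arrays and numbers left out), and PES1 without DMSO replicate 1, 2 or 4 or SB590885 replicate 1, 2 or 3 (up to 0.194). The count was 2 without DMSO replicate 1, DMSO replicate 2, SB590885 replicate 1 or SB590885 replicate 2, 3 without DMSO replicate 4, 4 without DMSO replicate 3 or SB590885 replicate 3, 2 without both interferon-high arrays, 0 without the arrays of number 1 or number 2, 2 without those of number 3 and 3 without those of number 4.

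Among 20 measured genes of metabolism and mitochondria, 3 fell and 1 rose with SB590885. Over all genes 1.69% were called lower and 1.59% higher in that comparison. HK2 (hexokinase) fell by 0.78 (adjusted p = 0.00481), the chaperonin genes HSPE1 and HSPD1 by 0.58 (adjusted p = 0.0178) and 0.30 (adjusted p = 0.0215), and SHMT2, of mitochondrial serine use, rose by 0.31 (adjusted p = 0.0323). Of 18 cell cycle genes, 3 fell: TERT by 0.29, CCNE1 (cyclin E) by 0.53 and CDC25A by 0.21 (adjusted p = 0.0107, 0.0173 and 0.0407). With the mean of a gene's probe sets HK2 no longer passed (-0.26, adjusted p = 0.0539), nor did CDC25A (-0.27, adjusted p = 0.348), while TERT (-0.17, adjusted p = 0.0451) and CCNE1 (-0.25, adjusted p = 0.0176) did at smaller differences. SHMT2 was lost without DMSO replicate 1, 2 or 3 or SB590885 replicate 2, 3 or 4 (adjusted p up to 0.280 over the arrays and numbers left out), HSPD1 without DMSO replicate 2 or 4 or SB590885 replicate 1, 2 or 3 (up to 0.199), and HSPE1 without DMSO replicate 1 or 2 or SB590885 replicate 2 (up to 0.140). CDC25A was lost without any 1 DMSO array or SB590885 replicate 1, 2 or 3 (adjusted p up to 0.257), and CCNE1 without DMSO replicate 1 or 2 or SB590885 replicate 2 (up to 0.148). HK2 and TERT passed in each fit that left out 1 array, and among the fits without arrays they failed only without those of number 1 or 2 (HK2, up to 0.0594) or of any 1 number (TERT, up to 0.114). In the arrays with the R alone SHMT2, HSPD1 and CDC25A did not pass (adjusted p = 0.127, 0.0537 and 0.143); these 3, HSPE1 and CCNE1 did not pass without both interferon-high arrays, nor did SHMT2 and CDC25A after median centring or quantile normalization, or CDC25A with low genes left out (adjusted p = 0.0537).

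With the block, the counts were 7 lower and 1 higher for metabolism, and 5 lower for the cell cycle. Over all genes 9.84% were called lower and 9.09% higher with the block. Without DMSO replicate 1, DMSO replicate 2, SB590885 replicate 2 or SB590885 replicate 3, the metabolism list had 2, 1, 1 and 2 genes past the test, and without any of the first 3 of these arrays the cell cycle list had 1. Without the arrays of number 1 or number 2 both lists had 0, without those of number 3 they had 1 and 0, without those of number 4 3 and 1, and without both interferon-high arrays 1 each.

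With PD325901, 2 genes of these target lists fell and 0 rose: CCNE1 by 0.90 (limma adjusted p = 0.00139) and PA2G4, a growth regulator of the nucleolus, by 0.36 (adjusted p = 0.0289). Over all genes 0.506% were called lower with PD325901. CCNE1 showed -0.41 when its probe sets were averaged (adjusted p = 0.00155). CCNE1 passed in every fit that left out arrays, and PA2G4 failed without DMSO replicate 1, 2 or 4, SB590885 replicate 1 or 2, or PD325901 replicate 3 or 4 (adjusted p up to 0.313 over the arrays and numbers left out). PA2G4 also failed in the arrays without the R (adjusted p = 0.0536), without both interferon-high arrays (0.105), after median centring (0.0801) and after quantile normalization (0.275). The list medians were -0.17 for polyamine and nucleotide synthesis, -0.15 for nucleolus and translation, -0.11 for metabolism and -0.13 for the cell cycle. In 14 of 18 nucleotide genes and 14 of 23 nucleolar genes PD325901 lay below DMSO in all 4 pairs, as in 18.5% of all genes. Lists drawn up for other roles exceeded that share too. Below in all pairs were 10 of 20 MYC cofactors, 8 of 21 turnover genes, 4 of 12 corepressors and 5 of 15 MYC regulators. The medians of these lists were -0.10, -0.079, -0.081 and -0.033. CUL1 of the turnover list and E2F1 of the regulators are also on the cell cycle target list. Whether MYC acts on other genes of these lists was not tested. Of the 32 tissue-restricted genes, 3 lay below in all pairs. With the block, 7, 3, 6 and 4 genes of the 4 target lists passed, all lower, DCTPP1 (-0.28, adjusted p = 0.0147) and HK2 (-0.41, adjusted p = 0.00756) among them. Over all genes 6.18% were called lower with the block.

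In direct tests between the drugs, no gene of the nucleotide or nucleolar list passed between SB590885 and PD325901 by limma, and with the block 4 nucleotide genes were lower and 1 higher, and 6 nucleolar genes were lower, with SB590885. With the block 12.4% of all genes were higher and 5.73% lower in that comparison. SHMT2 (0.38, adjusted p = 0.0129), AURKB (0.28, adjusted p = 0.0228) and NDRG1 (0.73, adjusted p = 0.00107) were higher with SB590885, as were EP400 (0.41, adjusted p = 0.00369), KAT5 (0.25, adjusted p = 0.0379) and GSK3B (0.54, adjusted p = 0.0257), the 6 genes of the pathway lists that passed that test, which 2.82% of all genes did. When arrays were left out that count was 1 to 7.

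Genes listed here as held down by MYC went in both directions. Whether MYC holds each of them down in these cells, ID2 among them, was not tested. Of 16 measured, NDRG1, a gene of stress and differentiation, rose with SB590885 by 0.46 (adjusted p = 0.0136) and no other passed; the call was lost without DMSO replicate 1 or without the arrays of number 1, 2 or 3 (adjusted p up to 0.179), in the arrays with the R alone (0.28, adjusted p = 0.0999) and without both interferon-high arrays (0.47, adjusted p = 0.0511). With the block, 6 were higher and 2 lower with each inhibitor, where 9.09% of all genes were higher and 9.84% lower with SB590885, and 1.96% and 6.18% with PD325901. For PD325901 the higher ones included the CDK inhibitor gene CDKN1A (8.71 to 9.26, difference 0.55, adjusted p = 0.140, 0.00471 with the block) and GADD45A of the stress response (0.60, adjusted p = 0.394, 2.82e-05 with the block), and ID2, an inhibitor of differentiation, was lower (-1.21, adjusted p = 0.189, 2.82e-05 with the block). Without the block 1.59% of all genes were called higher with SB590885. The list medians were 0.095 and 0.051.

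Of 7 targets of MLX and MLXIP, HK2 fell with SB590885, as given above, and none of the others passed. None of the 7 passed with PD325901. Shares over all genes were 3.28% with SB590885 and 0.592% with PD325901. TXNIP, the best known target of the pair, was 9.90 ± 0.46 with SB590885, 9.62 ± 0.25 with DMSO and 9.41 ± 0.38 with PD325901. Its differences of 0.28 and -0.21 did not pass (adjusted p = 0.776 and 0.985), and with the block the first did (adjusted p = 0.0179). ARRDC3, a related gene, showed 0.63 with SB590885 (adjusted p = 0.396, 8.4e-06 with the block), and PFKFB3, of glycolysis, -0.34 and -0.32 (adjusted p = 0.277 and 0.689, 0.00106 and 0.00498 with the block). The block called 18.9% of all genes with SB590885 and 8.14% with PD325901.

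Among 20 measured cofactors of MYC, EP400 and KAT5, of the TIP60 acetyltransferase complex, rose with SB590885 by 0.30 (limma adjusted p = 0.0190) and 0.26 (adjusted p = 0.0277). RUVBL1, an ATPase of the same complex, fell by 0.45 (adjusted p = 0.0296). Over all genes 1.59% were called higher and 1.69% lower with SB590885. None of the 3 calls held in every fit without 1 array: EP400 failed without DMSO replicate 1 or 4, KAT5 without DMSO replicate 1, 2 or 4 or SB590885 replicate 2, 3 or 4, and RUVBL1 without DMSO replicate 1, 2 or 4 or any SB590885 array. EP400 showed 0.14 when its probe sets were averaged (adjusted p = 0.0422), where KAT5 did not pass (0.21, adjusted p = 0.0949). None of the 3 passed without both interferon-high arrays (adjusted p = 0.0555 for EP400, 0.0808 for KAT5 and 0.0759 for RUVBL1). EP400 was also lost in the arrays with the R alone (adjusted p = 0.0971) and after median centring (0.0594), KAT5 in those without the R (0.0638) and after quantile normalization (0.201), and RUVBL1 after median centring (0.0728). Of 12 corepressors of the MXD proteins and MNT none passed with either drug by limma. HDAC1 (-0.24 and -0.20) and HDAC2 (-0.26 and -0.21) were lower with both in the fit with the block (adjusted p = 0.00357 and 0.0287 for HDAC1, 0.00263 and 0.0231 for HDAC2). That fit called 9.84% of all genes lower with SB590885 and 6.18% with PD325901.

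**Figure D4:**
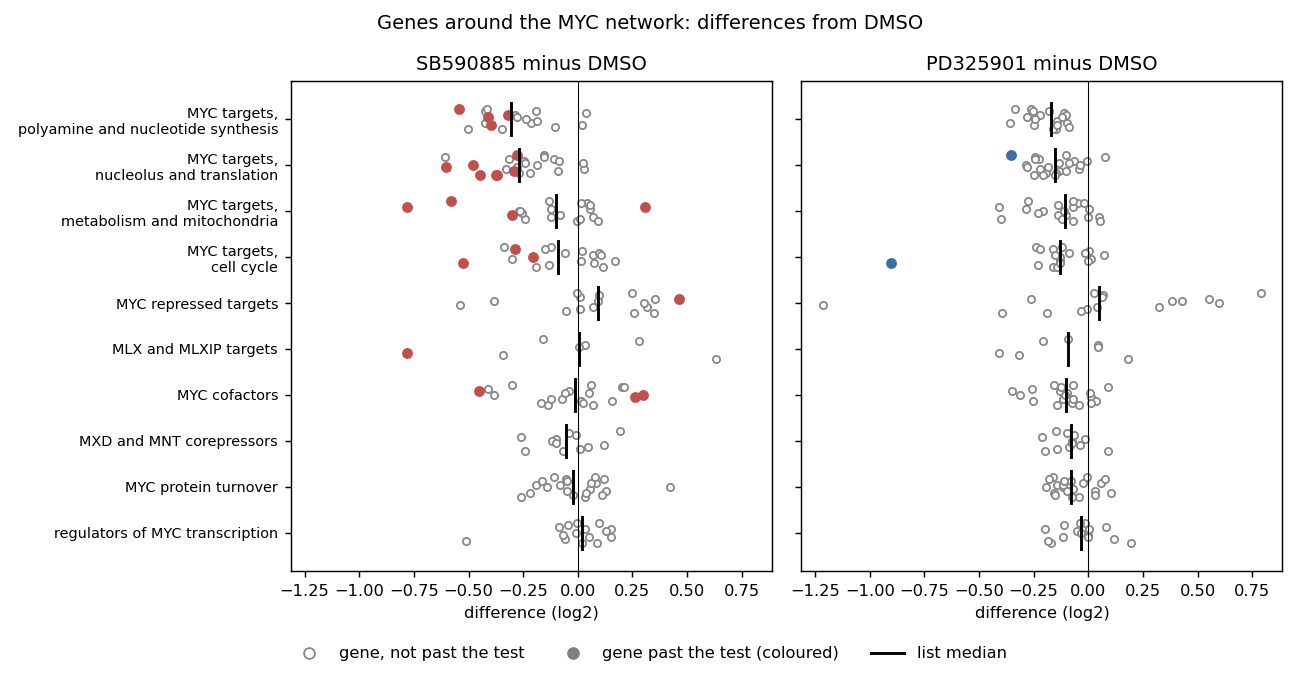
Difference from DMSO (log2, horizontal axes) of each gene in 10 lists around the network, with SB590885 (left) and PD325901 (right); open points did not pass the test, coloured points did, and the black bar is the list median. The lists of polyamine and nucleotide synthesis (median -0.30) and of the nucleolus and translation (-0.27) lie furthest left with SB590885.

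Plasma cell markers moved with SB590885 as well. Of 10, SLAMF7 fell by 0.90, XBP1 by 0.62 and SDC1 by 0.55 (limma adjusted p = 0.0156, 0.0317 and 0.0398), where 1.69% of all genes were called lower. The median level of the list was 11.48 to 11.71 in the SB590885 arrays, 11.73 to 11.91 with DMSO and 11.85 to 12.14 with PD325901. The GAPDH 3′ minus 5′ signal, a sign of RNA quality, was 0.371 ± 0.033 with DMSO, 0.440 ± 0.035 with SB590885 and 0.425 ± 0.057 with PD325901. The part of either in the results above was not tested.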

How the data were processed

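Total RNA (100 ng) was amplified for Affymetrix HG-U133 Plus 2.0 arrays, per the labels' protocols. The deposited table holds log2 expression values of the authors, made with RMA in R 3.0.1 per the submitters' processing notes. RMA is meant to make values comparable between arrays, and it compresses low signals. The deposited arrays still differed in spread: the SD over probe sets was 1.38 to 1.45 with the R and 1.52 to 1.55 without it. Array medians were 6.93 to 6.97 with the R and 6.88 to 6.91 without it. The part of this in the results was not tested. Scanner files were not analysed here. Of 54675 probe sets, 62 controls were left out; 41091 have 1 symbol in the platform annotation, 1801 several and 11721 none. Each of 19775 genes was read from the probe set brightest on average.

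Group means were fitted on all 12 arrays with limma 3.58.1 (R 4.3.3, no trend) and p-values adjusted by Benjamini-Hochberg over all genes, or all 54613 probe sets; a gene passed at an adjusted p under 0.05. The scripts were tested on simulated data. Same-numbered arrays deviated together from their group means (r of 0.544 to 0.913 over 12 pairs). Each array's best partner had its number in 12 of 12. Arrays of unlike numbers that both had or both lacked the R had an overlapping range (r of 0.123 to 0.646 over 12 pairs). DMSO replicate 3 had r = 0.557 with SB590885 replicate 3 and 0.564 with SB590885 replicate 4. The number was taken as a pairing, which the labels do not explain, and the block is the number as a term. Arrays 3 and 4 carry the R, so the block takes up that mark too. The number of arrays limits the precision. Promoter windows come from RefSeq (GRCh38.p14).

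The text names all members; of each list the genes with the smallest p, at most 4 per comparison with DMSO; DUSP6 and ETV5; and the 3 genes most like MYC and MLX. MRTO4, PA2G4 and WDR12, markers, and genes of the direct comparison were named after their values were seen. The members and lists were chosen with earlier results of these data known. Alternatives were the block, the R mark as a term or either set alone, arrays left out, median centring, quantile normalization, the mean of a gene's probe sets and low genes left out; leaving out both interferon-high arrays was chosen after seeing the data.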

Additional observations from a re-analysis of the deposited data

Results flagged for a closer look

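In 7 of 102 groups of 4 arrays checked over the 34 probe sets, 1 array lay far from the other 3 by Dixon's test, where chance alone flags about 1 in 20 groups. In MXD1 probe set 206877_at, DMSO replicate 3 read 6.95 against 6.75 to 6.77 in the others, and SB590885 replicate 3 read 7.13 against 6.94 to 6.96, so both arrays of number 3 were high there. In MAX probe set 214108_at, DMSO replicate 4 read 7.26 against 7.43 to 7.45, and SB590885 replicate 3 read 7.20 against 7.31 to 7.32. In MYCN, DMSO replicate 2 read 6.94 against 7.14 to 7.17 in probe set 209756_s_at, SB590885 replicate 3 read 6.28 against 6.36 in 234169_at, and SB590885 replicate 4 read 6.32 against 6.21 to 6.22 in 234872_at, all close to background. None of these probe sets passed without the block.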

How the results depend on the processing

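No value changed direction while called under any alternative. The network counts of 1 (SB590885 against DMSO), 0 (PD325901 against DMSO) and 2 (SB590885 against PD325901) became 2, 3 and 5 with the replicate block, the same with the R mark as a term, 3, 1 and 4 in the arrays without the R, 2, 1 and 0 in those with it; quantile normalization gave 1 for PD325901, the mean of a gene's probe sets 2 for SB590885, and the direct comparison fell to 0 with that mean, with median centring or without both interferon-high arrays, and to 1 with low genes left out. Leaving arrays out gave 0 to 2, 0 to 0 and 0 to 3. The member probe sets called, 2, 0 and 2, became 5, 5 and 7 with the block and with the R mark as a term, 6, 1 and 6 without the R, 4, 2 and 0 with it; quantile normalization gave 1 and 1 against DMSO; the direct comparison gave 0 with median centring or without both interferon-high arrays and 1 with low genes left out. Leaving arrays out gave 0 to 4, 0 to 0 and 0 to 3.

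The counts of list genes, 22, 2 and 6, became 71, 37 and 50 with the block, 64, 35 and 45 with the R mark as a term, 61, 5 and 48 without the R, 43 (PD325901) and 26 (direct) with it, and 35, 6 and 22 after quantile normalization. Without both interferon-high arrays they were 8, 1 and 4, and median centring gave 1 for PD325901. Leaving arrays out gave 0 to 23, 1 to 3 and 1 to 7. Genes called over the whole table, 649, 117 and 558, became 3742, 1610 and 3582 with the block, 3331, 1289 and 3187 with the R mark as a term, 2637, 186 and 2358 without the R, 1066, 1079 and 1770 with it, 382, 93 and 307 after median centring, and 1634, 349 and 1555 after quantile normalization; without both interferon-high arrays SB590885 against DMSO had 320. Leaving arrays out gave 33 to 691, 39 to 126 and 111 to 509. The cause of these moves was not tested; fits on 6 arrays have fewer samples.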

Other observations

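Genes that act on MYC from outside the network were also measured. Of 15 measured regulators of MYC transcription none passed with either inhibitor by limma, where 3.28% of all genes did with SB590885 and 0.592% with PD325901. IKZF1, a lymphoid transcription factor on which myeloma cells depend, was 10.43 with DMSO and 9.92 with SB590885, with all SB590885 arrays below all DMSO arrays (-0.51, adjusted p = 0.0915, 0.00125 with the block). CTCF, an insulator protein, was 10.36 with DMSO and 10.17 with PD325901 (-0.20, adjusted p = 0.979, 0.0456 with the block). SB590885 and DMSO arrays did not overlap in 10.2% of all genes. The block called 18.9% of all genes with SB590885 and 8.14% with PD325901.

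Of 21 measured genes of MYC protein turnover none passed against DMSO by limma, where 3.28% of all genes did with SB590885 and 0.592% with PD325901. GSK3B, a kinase that phosphorylates MYC protein ahead of its destruction, was 9.53 with DMSO, 9.95 with SB590885 and 9.42 with PD325901. Its difference with SB590885 was 0.42 (adjusted p = 0.0677), with no overlap of the arrays, and it passed with the block (adjusted p = 2.93e-05). AURKA, a kinase that shields MYCN from the same pathway, showed -0.26 with SB590885 (adjusted p = 0.244, 0.0109 with the block). The ubiquitin proteases USP36 (-0.15) and USP28 (-0.19) were lower with PD325901 in the fit with the block (adjusted p = 0.0461 and 0.0479). Here too, 10.2% of all genes had no overlap between SB590885 and DMSO. The block called 18.9% with SB590885 and 8.14% with PD325901.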
